A study of Mus musculus with 18 samples.

Results

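The genes of glycolysis and of the hypoxia response were followed through mouse dendritic cells harvested 5 hours after a gradient of the chemokine CCL19 was set up, in collagen gels of 4 densities or in the same chambers without collagen. The group held 35 named genes: transporters and enzymes that take up and break down glucose, and genes known to be induced when oxygen is low. It was set as a list of symbols, with earlier results of these data known, and no measured value enters the rule. The count table held 29875 genes. All 35 genes were found in the table and all 35 passed the filter on low counts, which kept 13844 genes.

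The cells were wild-type C57Bl6/J dendritic cells grown from bone marrow of mice aged 8 to 12 weeks in medium with GM-CSF and matured for 24 hours with 200 ng/ml of lipopolysaccharide (LPS), so every group, the gel-free one included, carried the LPS stimulus. Collagen was used at 4 densities from 1.7 to 4.4 mg/ml, the middle ones being 2.6 and 3.5 mg/ml, with 3 libraries at each density and the CCL19 gradient in all of them. The cells without collagen, called suspension here, gave 3 libraries titled as having CCL19 and 3 titled as having none. For these 6 libraries the titles and the library names disagree on CCL19, so they are named by title and no direction of a CCL19 effect was drawn from them. By either label CCL19 was present in all gels but in only 3 of these 6 libraries. Differences between collagen and the pooled suspension libraries therefore mix the gel with CCL19, and the parts of the 2 cannot be told apart. Each replicate number 1, 2 and 3 occurs once in every group, and the 6 libraries that share a number also share the date written in their library names. They share the run code before the date as well. The codes of replicates 1 and 3 differ only in their last digit, and replicate 2 has another code. Replicate number, date and the code with its last digit therefore cannot be told apart.

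Glycolysis splits glucose into pyruvate and yields ATP without oxygen. Hypoxia-inducible factor (HIF) is a transcription factor whose alpha subunit is hydroxylated by the EGLN prolyl hydroxylases when oxygen is present and then degraded; when oxygen is scarce, or when inflammatory signals raise it, HIF induces glucose transporters, glycolytic enzymes, lactate export, mitophagy receptors and secreted factors such as VEGF-A. Dendritic cells activated with LPS are known to turn to glycolysis, and Hif1a itself is known to respond to inflammatory signals.

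The libraries held 13062944 to 28059839 counts. Summed levels of 12 mature dendritic cell markers, Cd74, Ccr7, Fscn1 and Ccl22 among them, ran from 31287 to 107530 CPM in the 18 libraries, and the markers of lymphocytes (7 genes) and red cells (6 genes) summed to at most 21.5 CPM and 7.07 CPM. CPM are read counts per 1000000 of the scaled library total. The 35 genes took 0.838% to 3.6% of all counts of a library. In bulk RNA, fewer cells that express a gene and less of its RNA per cell cannot be told apart.

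HIF is known to bind promoters and enhancers at the letters ACGTG or GCGTG. RefSeq promoter windows on GRCm38.p6, from 250 bases before to 50 after the start, were available for 32 of the 35 genes, Ero1l being listed there as Ero1a, and not for Slc2a3, Bnip3l and Ndrg1. ACGTG or GCGTG, on either strand, stood in 25 of the 32 windows (78.1%), against 43.8% of 27025 genes with a window of the same length. More than 1 place with either run of letters, overlapping matches counted once, was found in 19 of the 32 windows (59.4%) against 17.4% of all. Only the first listed window of each gene was used, and some members, Aldoa, Ldha and Vegfa among them, have more than 1. Both runs of letters contain CG, and the members were not matched to other genes by CG content. A match in the letters is a description and no evidence of binding. Windows of 4 genes are shown 5′ to 3′ on the gene's strand with the matching letters in capitals, because Ankrd37, Pgk1 and Adm were higher and Egln1 was lower in collagen in the results that follow.
Ankrd37 (chr8:45999801-46000100, minus strand): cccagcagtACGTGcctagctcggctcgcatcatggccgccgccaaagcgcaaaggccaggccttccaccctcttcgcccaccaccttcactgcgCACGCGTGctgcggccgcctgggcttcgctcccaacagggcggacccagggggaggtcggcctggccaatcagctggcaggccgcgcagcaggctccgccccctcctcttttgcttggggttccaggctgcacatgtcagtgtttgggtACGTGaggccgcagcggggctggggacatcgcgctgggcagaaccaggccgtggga
Pgk1 (chrX:106186850-106187149, plus strand): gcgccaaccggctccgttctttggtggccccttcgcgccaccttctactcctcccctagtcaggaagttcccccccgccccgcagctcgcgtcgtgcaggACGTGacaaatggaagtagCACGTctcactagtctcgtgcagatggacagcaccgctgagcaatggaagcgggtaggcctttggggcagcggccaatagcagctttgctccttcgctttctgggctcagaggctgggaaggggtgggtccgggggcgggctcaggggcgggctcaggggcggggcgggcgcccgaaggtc
Adm (chr7:110627407-110627706, plus strand): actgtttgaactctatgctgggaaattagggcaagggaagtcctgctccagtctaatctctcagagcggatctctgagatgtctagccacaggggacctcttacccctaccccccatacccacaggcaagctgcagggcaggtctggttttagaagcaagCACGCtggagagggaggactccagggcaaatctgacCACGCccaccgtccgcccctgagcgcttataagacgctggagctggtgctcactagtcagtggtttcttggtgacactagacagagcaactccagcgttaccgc
Egln1 (chr8:124949205-124949504, minus strand): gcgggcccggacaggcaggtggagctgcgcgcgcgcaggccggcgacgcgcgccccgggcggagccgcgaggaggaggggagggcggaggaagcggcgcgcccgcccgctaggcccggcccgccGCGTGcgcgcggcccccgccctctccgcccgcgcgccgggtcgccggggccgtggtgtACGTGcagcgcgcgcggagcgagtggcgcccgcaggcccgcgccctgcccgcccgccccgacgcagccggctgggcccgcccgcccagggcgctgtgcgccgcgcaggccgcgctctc
The windows of Pgk1, Adm and Egln1 each hold 2 places with the letters and that of Ankrd37 holds 3.

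The level of each gene, as CPM per kilobase of exon, set the order of the group. Aldoa (aldolase), with a median of 902 CPM per kilobase over the 18 libraries, Pkm (pyruvate kinase, 505), Tpi1 (triosephosphate isomerase, 406) and Ldha (lactate dehydrogenase A, 404) were the highest, and P4ha2 (0.557), Adm (1.01), Pdk1 (1.73) and Bnip3 (2.47) the lowest. Gapdh, Pgk1 and Pgam1 stood far below the enzymes around them in the pathway, at 5.06, 18.6 and 12.4 CPM per kilobase. Much of their sequence is shared with other genes. Of all 50-base windows of the longest coding transcript, the length of a read here, 82.5% for Gapdh, 68% for Pgk1, 41.5% for Pgam1, 72.2% for Eno1 and 62.4% for Bnip3 also occurred in transcripts of other genes, 222 genes for Gapdh and 4 to 9 for the others. Their counts are therefore uncertain as levels. Of the further members called in a blocked comparison described below, Pkm shared 34.4% of its windows, Gpi1 25.3%, Bnip3l 23.4%, Pfkp 17.1%, Ldha 16.6%, Ndrg1 14.6%, Aldoa 13.5%, Ankrd37 11.4%, Tpi1 7.51%, Hif1a 7.25% and Slc2a1 1.74%, and Pfkl only 2 windows. Exons of other genes on the same strand overlapped 15.3% of the exon bases of Pkm. Egln1, Adm, Kdm3a, Slc16a3, Ero1l, P4ha1, P4ha2, Pdk1, Pfkfb4 and Hilpda had no shared window.

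The replicate number, and not the collagen, separated the libraries most plainly in these genes. All 6 replicate 1 libraries, the 2 suspension libraries among them, were high for most of the group. On the log2 CPM scale, 34 of the 35 genes were higher on average in replicate 1 than in replicate 3, with a median difference of 2.11, against 50.5% of all genes tested and a median of 0.01. The exception, Hif1a, was lower in replicate 1 by 0.47. Against the other replicate 2 libraries without the 4.4 mg/ml one, replicate 1 was higher in 33 of 35 genes, with a median difference of 1.86 (all genes −0.02), and Hif1a and Pfkfb4 were the 2 exceptions.

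Slc2a1, which encodes the glucose transporter GLUT1, showed the split in full. Replicate 1 held 857 to 1433 CPM (median 904), replicate 3 31.5 to 124 CPM (median 72), and replicate 2 outside the 4.4 mg/ml library 86.4 to 158 CPM (median 105). The replicate 1 libraries did not overlap with these, whether they came from gel or from suspension. Vegfa, the secreted angiogenic factor VEGF-A, ranged over 242 to 495.02 CPM (median 369) in replicate 1 and over 4.41 to 25.9 CPM (median 8.55) in replicate 3. Bnip3, a mitophagy receptor, held 42.9 to 54.2 CPM (median 46.2) in replicate 1 and 1.75 to 10 CPM (median 3.94) in the 11 libraries of replicates 2 and 3 that leave out the 4.4 mg/ml library of replicate 2. Egln3, an oxygen-sensing hydroxylase that is itself a HIF target, ran from 338 to 632 CPM in replicate 1 and from 14.6 to 74.5 CPM in those 11 libraries. In each of these genes the lowest replicate 1 library lay above the highest of the 11.

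In all, 27 of the 35 genes (77.1%) had every replicate 1 library above every one of those 11 libraries, against 5.32% of all genes tested. With the 4.4 mg/ml library of replicate 2 counted among the lower libraries, the number was 10 (Hk2, Pfkfb3, Eno1, Pdk1, Egln1, Egln3, Bnip3, Vegfa, Ero1l and P4ha1), or 28.6% against 1.86%. The split was widest on average for P4ha2 (5.38 on the log2 scale between replicates 1 and 3), Vegfa (5.12), Ankrd37 (4.48), Egln3 (4.22) and Hilpda (4.04). It was narrow for Pfkp (0.14) and Mxi1 (0.45). By role, the medians between replicates 1 and 3 were widest for protein folding and collagen hydroxylase targets (3.80) and secreted targets (3.59). They were 3.27 for lactate and pyruvate fate, 3.08 for glucose uptake and 2.64 for other hypoxia-inducible targets. The hexokinases had 2.39, the mitophagy receptors 2.34, upper glycolysis 2.11, HIF and its hydroxylases 2.06 and lower glycolysis 1.78. The narrowest was 0.94, for Pfkfb3 and Pfkfb4. Since every group has 1 library of each replicate number, this split is balanced over the groups. It enters the comparisons without the block as spread, and the block takes it out.

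Summed markers of several cell types moved with the replicate number. The 8 macrophage markers (Csf1r, Adgre1, Fcgr1 and the C1q genes among them, none at 0 throughout) summed to 1449 to 2225 CPM in replicate 1, to 445 to 1018 in replicate 2 outside the 4.4 mg/ml library, to 1439 in that library and to 327 to 794 in replicate 3. The sum of the 11 neutrophil markers went the other way, from 782 to 1717 CPM in replicate 1 and from 1682 to 10065 in the 11 libraries named above. The 12 dendritic cell markers summed to 31287 to 57038 CPM in replicate 1, to 48453 to 73733 in replicate 2 and to 46690 to 107530 in replicate 3. The 7 basophil and mast cell markers summed to 28.2 to 46.4 CPM in replicate 1, to 110.4 to 270.3 in replicate 2 and to 38 to 182 in replicate 3. Abundant genes weigh most in such sums, and not every marker followed its sum. In the 1.7 mg/ml gels (replicates 1, 2 and 3) the neutrophil marker Ly6g measured 12.8, 5.07 and 5.88 CPM. The macrophage marker Mrc1 measured 1.31, 2.32 and 2.21 there, and the dendritic cell marker Itgax 285, 108 and 132. The part of these cells in the replicate difference was not tested.

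**Figure D1:**
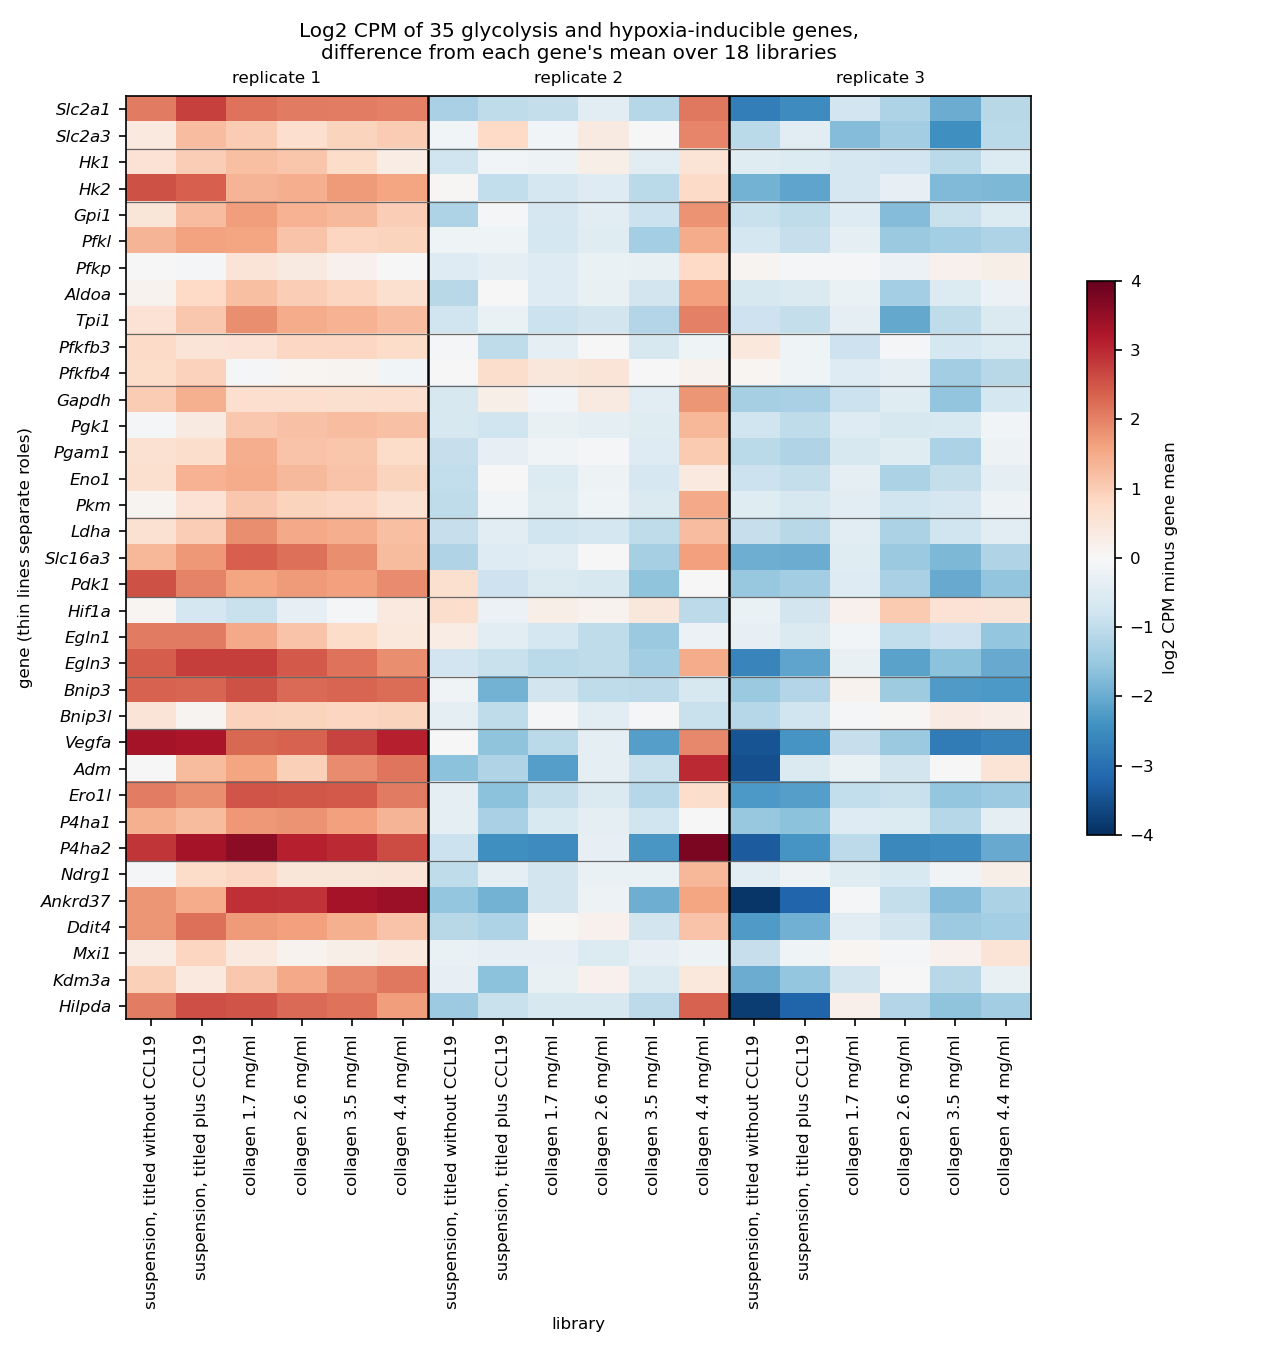
Log2 CPM of the 35 genes (rows, by role) in the 18 libraries (columns, by replicate number), as the difference from each gene's mean over all libraries; red is higher and blue is lower. The 6 replicate 1 columns are red for most rows, and in replicate 2 the collagen 4.4 mg/ml column alone is mostly red.

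The collagen 4.4 mg/ml library of replicate 2 stood apart from the other 5 libraries of its number. Its library name ends in an added number that the other 4.4 mg/ml names lack. A suspension name of replicate 2 has such a number too, and its meaning is not given. It was the highest of the 6 for 28 of the 35 genes (80%), against 24.4% of all genes tested, and its median difference from the mean of the other 5 was 1.75 on the log2 scale (all genes −0.10). Slc2a1 stood at 928 CPM in it, Tpi1 at 6174, Aldoa at 9727, Pkm at 8274 and Gpi1 at 4061. The last 4 were above every replicate 1 library, and Slc2a1 lay inside the replicate 1 range.

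P4ha2, a subunit of the enzyme that hydroxylates prolines of collagen, stood at 94.1 CPM in that library and at 1.1 to 5.42 in the rest of replicate 2. Not every hypoxia-inducible gene followed. Bnip3 was at 5.8 CPM, inside the range of 2.36 to 8.2 of the other 5, and so was Pdk1 at 19.8, within 6.39 to 31.1. Hif1a (40.5 CPM) was the lowest of the 6. Its difference from the replicate 1 mean on the log2 scale had a median of 0.62 for upper and 0.51 for lower glycolysis. For glucose uptake the median was 0.50, and for the secreted targets 0.38. It was −0.15 for lactate and pyruvate fate, −0.49 for Pfkfb3 and Pfkfb4 and −0.67 for the hexokinases. Other hypoxia-inducible targets had −0.55, and HIF and its hydroxylases −0.93. The protein folding and collagen hydroxylase targets had −1.52, and the mitophagy receptors −2.28.

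The other 4.4 mg/ml libraries did not stand apart in this way. The replicate 1 library was the highest of its number for 4 genes (Hif1a, Adm, Ankrd37 and Kdm3a; 11.4% against 21.9% of all genes), with a median difference of −0.17. The replicate 3 library was the highest for 10 (28.6% against 17.2%), with a median of 0.40. Calls that use the 4.4 mg/ml group are therefore given with and without the replicate 2 library.

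**Figure D2:**
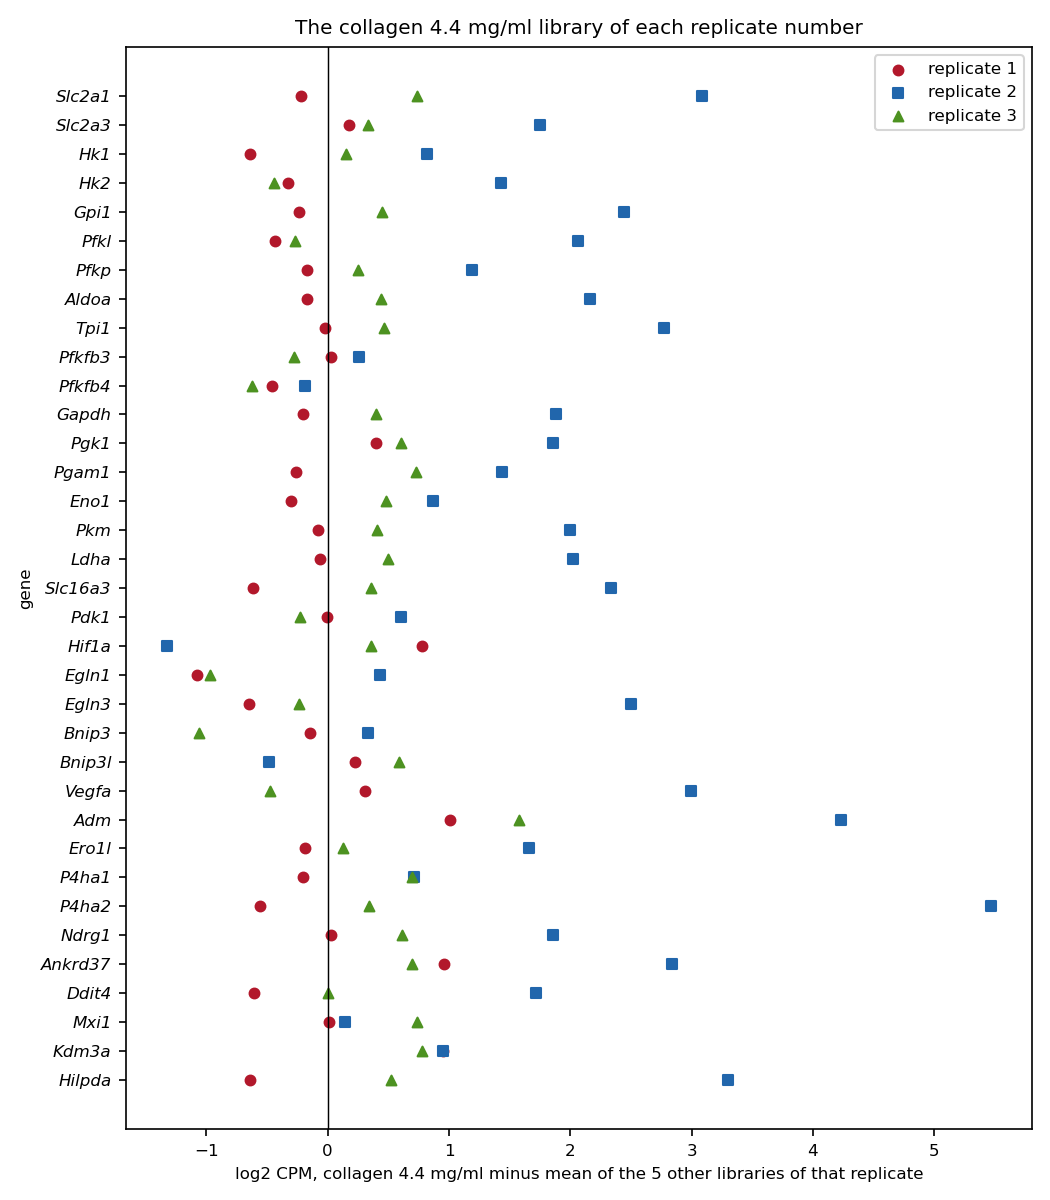
For each gene, log2 CPM of the collagen 4.4 mg/ml library minus the mean of the 5 other libraries with the same replicate number, for replicates 1 (circles), 2 (squares) and 3 (triangles). The squares lie right of 0 for 32 of 35 genes, with a median of 1.75, while the circles have a median of −0.17 and the triangles of 0.40.

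The first comparison asked how cells in collagen, over the 4 densities, differed from cells in suspension, with both suspension groups averaged. Without the replicate number in the model, edgeR's quasi-likelihood test called none of the 35 genes at a false discovery rate (FDR) under 0.1, against 20.2% of all genes tested. At an unadjusted p under 0.05 there was 1 member, Pgk1, and DESeq2, run as an alternative, called 1, also Pgk1 (log2 difference 0.90). The median log2 difference of the members was 0.30 (all genes 0.00), and 24 of 35 were positive.

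With the replicate number as a block, so that gel and suspension libraries of one date are compared with each other, 10 genes rose and 2 fell in collagen. The 12 calls are 34.3% of the members, beside 34.8% of all genes, so the number called does not set the group apart. Split by direction, 28.6% of members were higher against 15.6% of all genes, and 5.71% were lower against 19.3%. The median of the members was 0.43 (all genes 0.01). Without the 4.4 mg/ml library of replicate 2 the blocked fit called 13 members, 10 higher and 3 lower (37.1% against 37.6% of all genes), with a median of 0.18. Relative to the 12 calls, Hilpda was lost, and Pfkl (lower) and Hif1a (higher) were gained.

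**Figure D3:**
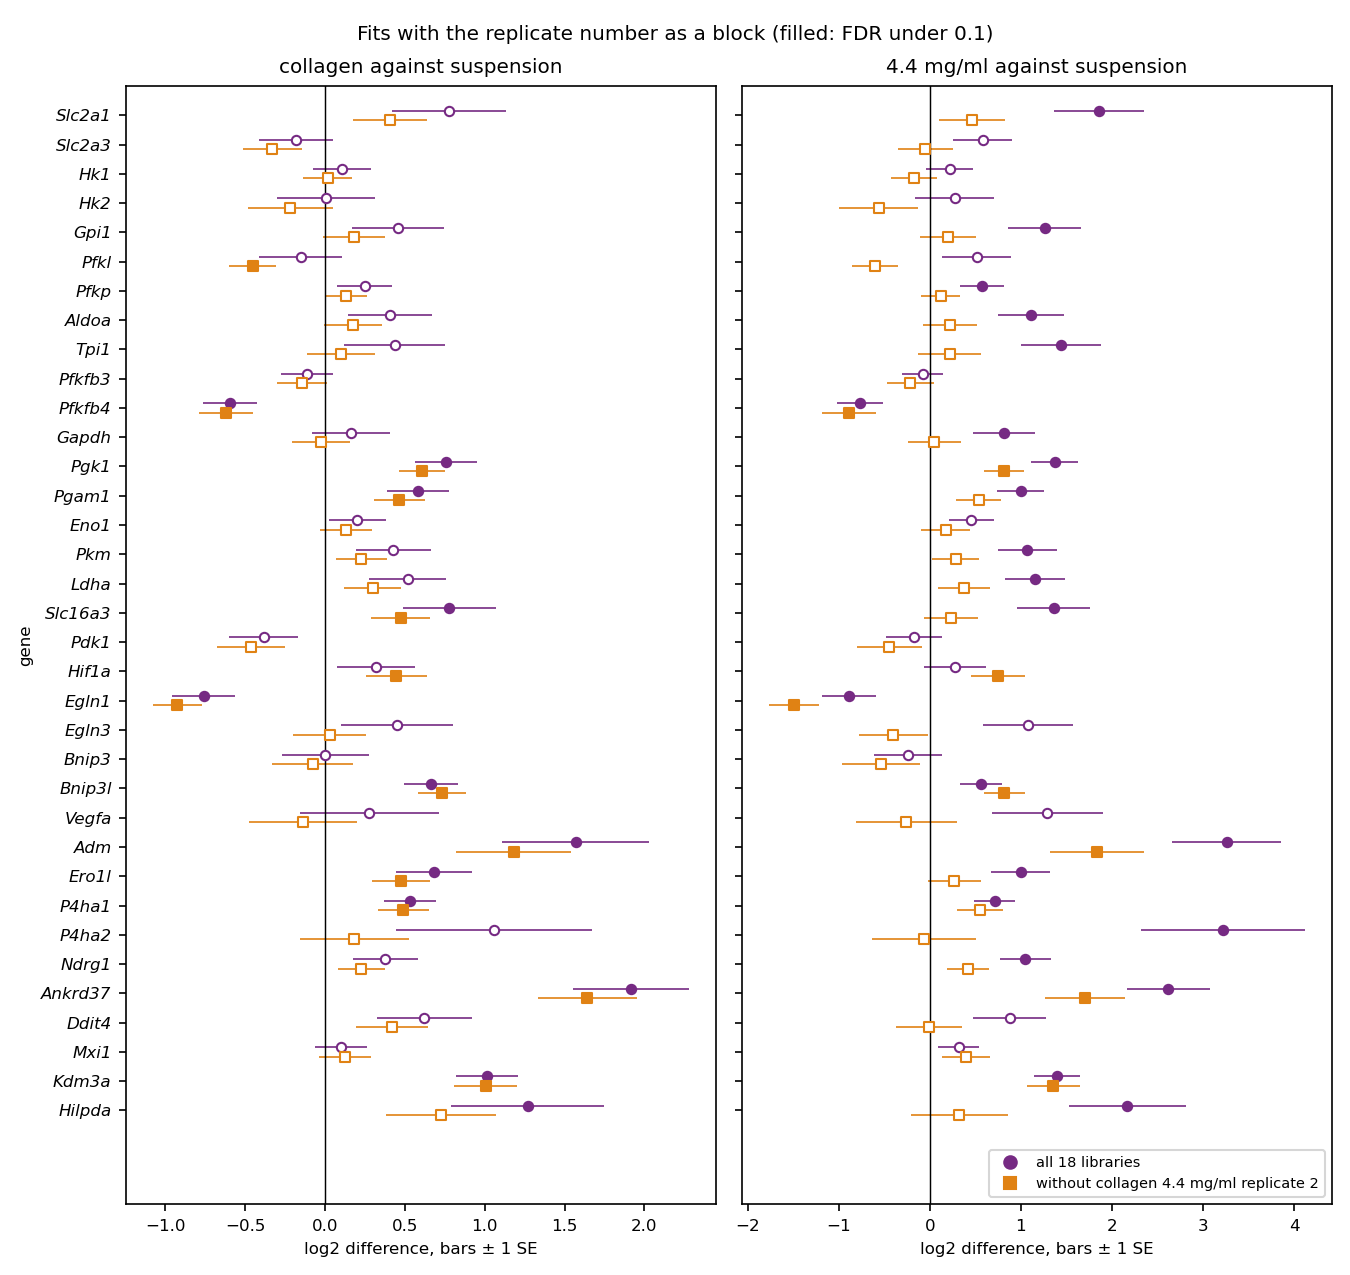
Log2 difference with 1 standard error for the 35 genes in the fits with the replicate block, over all 18 libraries (circles) and without the collagen 4.4 mg/ml library of replicate 2 (squares); filled symbols have an FDR under 0.1. Ankrd37, Kdm3a, Bnip3l, Pgk1 and Adm are filled above 0, and Egln1 and Pfkfb4 below 0, in both fits of both panels, whereas Slc2a1, Gpi1, Aldoa, Tpi1, Gapdh, Pkm and Ldha are filled at 4.4 mg/ml with all libraries and open when that library is left out.

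Ankrd37, which encodes an ankyrin-repeat protein and is a known HIF target, had the largest difference of the group. It measured 105, 8.19 and 13.1 CPM in the 1.7 mg/ml gels (replicates 1, 2 and 3), 102, 11.9 and 7.05 in those of 2.6 mg/ml, 137, 3.44 and 4.02 in those of 3.5 mg/ml and 149, 40.8 and 5.6 in those of 4.4 mg/ml, against 0.811 to 46.4 CPM (median 4.09) in suspension. Every collagen library of replicates 1 and 3 lay above both suspension libraries of its own number, as did those of replicate 2 apart from the one at 3.5 mg/ml. Within replicates 1, 2 and 3 the mean log2 difference was 1.52, 1.4 and 2.54. The blocked fit gave 1.92 ± 0.36 (SE, edgeR adjusted p = 0.00095), and 1.64 ± 0.31 (adjusted p = 0.00088) without the 4.4 mg/ml library of replicate 2. Exons of Lrp2bp and Ufsp2 on the opposite strand overlap 26.4% of its exon bases, and the use of strand in the counting is not given in the sources used here.

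Kdm3a, a histone lysine demethylase induced by HIF, was also higher in collagen. Its values were 144, 56 and 40.9 CPM in the 1.7 mg/ml gels (replicates 1, 2 and 3), 197, 77.6 and 67.8 in those of 2.6 mg/ml, 261, 46.3 and 32 in those of 3.5 mg/ml and 299, 92.3 and 55.9 in those of 4.4 mg/ml, beside 17.4 to 135 CPM (median 39.3) in suspension. Within replicates the differences were 0.98, 0.91 and 1.22. The blocked log2 difference was 1.02 ± 0.19 (edgeR adjusted p = 0.00099), and 1.01 without the library that stood apart.

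Among the remaining hypoxia-inducible targets, Hilpda, a lipid droplet protein, measured 388, 42.8 and 77.4 CPM in the 1.7 mg/ml gels (replicates 1, 2 and 3), 325, 43.3 and 29.9 in those of 2.6 mg/ml, 305, 32.7 and 21.9 in those of 3.5 mg/ml and 215, 347 and 25.5 in those of 4.4 mg/ml. Suspension held 4.75 to 400.0 CPM (median 30.4), and the 2 suspension libraries of replicate 3, at 4.75 and 7.14 CPM, were the lowest of all. The within-replicate differences were -0.14, 1.18 and 2.51, negative in replicate 1. The blocked call (1.27 ± 0.48, edgeR adjusted p = 0.057) was lost without the 4.4 mg/ml library of replicate 2 (0.73 ± 0.34, adjusted p = 0.12). Ddit4 (an inhibitor of mTORC1 signalling), Mxi1 (a Myc antagonist) and Ndrg1 (a stress-responsive gene) had blocked differences of 0.62, 0.1 and 0.38 that did not pass the test.

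Of the mitophagy receptors, Bnip3l (NIX) rose and Bnip3 did not pass. Bnip3l measured 139, 70.8 and 71.3 CPM in the 1.7 mg/ml gels (replicates 1, 2 and 3), 135, 53.9 and 75.8 in those of 2.6 mg/ml, 131, 68.5 and 92 in those of 3.5 mg/ml and 134, 39.6 and 88.5 in those of 4.4 mg/ml, beside 33.2 to 104 CPM (median 49) in suspension. All collagen libraries of replicates 1 and 3 lay above their own suspension libraries, and in replicate 2 the values overlapped. The within-replicate differences were 0.57, 0.34 and 1.12, and the blocked fit gave 0.66 ± 0.17 (edgeR adjusted p = 0.0077), or 0.73 ± 0.15 without the library that stood apart. Bnip3 measured 54.2, 5.38 and 10 CPM in the 1.7 mg/ml gels (replicates 1, 2 and 3), 43.9, 4.41 and 3.29 in those of 2.6 mg/ml, 45.9, 4.35 and 1.79 in those of 3.5 mg/ml and 42.9, 5.8 and 1.75 in those of 4.4 mg/ml, with 2.36 to 46.7 CPM (median 6.07) in suspension, and its blocked difference was 0.00 ± 0.27 (adjusted p = 1).

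HIF and its hydroxylases went different ways. Egln1, the main oxygen-sensing prolyl hydroxylase (PHD2), measured 187, 39.6 and 59.8 CPM in the 1.7 mg/ml gels (replicates 1, 2 and 3), 144, 31.9 and 32.8 in those of 2.6 mg/ml, 108, 23 and 36.8 in those of 3.5 mg/ml and 87.9, 54.9 and 22.2 in those of 4.4 mg/ml. Suspension held 43.4 to 278 CPM (median 65.8). In replicate 1 each gel library, from 87.9 to 187 CPM, lay below both suspension libraries, at 275 and 278 CPM. In replicate 2 the 4.4 mg/ml library lay between the suspension libraries, at 80.2 and 48.4 CPM. In replicate 3 the 1.7 mg/ml library lay above both, at 51.4 and 43.4 CPM. The remaining gel libraries lay below their suspension pair. The within-replicate differences were -1.13, -0.81 and -0.41. The blocked fit gave -0.76 ± 0.2 (edgeR adjusted p = 0.0088), and -0.93 ± 0.15 (adjusted p = 0.0003) without the 4.4 mg/ml library of replicate 2. Without the block the value was -0.94 ± 0.52 (adjusted p = 0.26).

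Egln3 measured 632, 43.9 and 74.5 CPM in the 1.7 mg/ml gels (replicates 1, 2 and 3), 502, 46 and 20.7 in those of 2.6 mg/ml, 418, 34.8 and 29.6 in those of 3.5 mg/ml and 338, 258 and 22.8 in those of 4.4 mg/ml, and suspension 14.6 to 628 CPM (median 52.3). Its blocked difference was 0.45 ± 0.35 (edgeR adjusted p = 0.37), and gel and suspension libraries overlapped in every replicate. Hif1a, the alpha subunit itself, measured 45.5, 100.1 and 94.9 CPM in the 1.7 mg/ml gels (replicates 1, 2 and 3), 67.9, 94.1 and 175 in those of 2.6 mg/ml, 80.4, 115 and 126 in those of 3.5 mg/ml and 111, 40.5 and 121 in those of 4.4 mg/ml, with 50.4 to 139 CPM (median 70.6) in suspension. In replicate 3 every gel library lay above both suspension libraries, in replicates 1 and 2 the values overlapped, and the within-replicate differences were 0.1, -0.29 and 1.09. The blocked difference was 0.32 ± 0.24 (adjusted p = 0.36), and passed the threshold without the 4.4 mg/ml library of replicate 2 (0.45 ± 0.19, adjusted p = 0.089).

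Of the secreted factors, adrenomedullin (Adm), a vasodilator peptide, was the only member that edgeR called without the block when all 18 libraries and the filter on low counts were used with no offsets. Per kilobase it was the second lowest of the group, with 1 count in its lowest library. Its values were 5.62, 0.305 and 1.47 CPM in the 1.7 mg/ml gels (replicates 1, 2 and 3), 3.54, 1.37 and 1.03 in those of 2.6 mg/ml, 6.99, 0.913 and 1.79 in those of 3.5 mg/ml and 8.35, 14.9 and 2.7 in those of 4.4 mg/ml, against 0.058 to 4.5 CPM (median 0.939) in suspension. Within each replicate number the 4.4 mg/ml library was the highest. The blocked difference over the 4 densities was 1.57 ± 0.46 (edgeR adjusted p = 0.018), and 1.18 ± 0.36 (adjusted p = 0.021) without the library that stood apart. Vegfa measured 242, 23 and 25.9 CPM in the 1.7 mg/ml gels (replicates 1, 2 and 3), 252, 37.8 and 17.5 in those of 2.6 mg/ml, 318, 10.5 and 6.92 in those of 3.5 mg/ml and 419.9, 188 and 7.59 in those of 4.4 mg/ml, with 4.41 to 495.02 CPM (median 32.7) in suspension. All 4 gel libraries of replicate 1 lay below both suspension libraries, while the 4 of replicate 3 included values above and between them, and the blocked difference was 0.28 ± 0.43 (adjusted p = 0.68).

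Of the 3 protein folding and collagen hydroxylase targets, Ero1l and P4ha1 rose. Ero1l, an oxidase that serves disulfide bond formation in the endoplasmic reticulum, measured 767, 68.6 and 68.2 CPM in the 1.7 mg/ml gels (replicates 1, 2 and 3), 748, 88.9 and 71.8 in those of 2.6 mg/ml, 727, 60.3 and 45.6 in those of 3.5 mg/ml and 567, 219 and 48.6 in those of 4.4 mg/ml, beside 27.2 to 549 CPM (median 72.5) in suspension. Its blocked difference was 0.68 ± 0.24 (edgeR adjusted p = 0.041; within replicates 0.43, 0.52 and 1.03), and 0.48 ± 0.18 (adjusted p = 0.06) without the library that stood apart. P4ha1, a catalytic subunit of prolyl 4-hydroxylase, measured 399.6, 77.8 and 83.9 CPM in the 1.7 mg/ml gels (replicates 1, 2 and 3), 411, 92 and 80.6 in those of 2.6 mg/ml, 369.8, 67.8 and 53.5 in those of 3.5 mg/ml and 307, 121 and 91.3 in those of 4.4 mg/ml and 38.1 to 318 CPM (median 69.4) in suspension. The blocked fit gave 0.53 ± 0.16 (adjusted p = 0.022), with 0.29, 0.4 and 0.93 within replicates, and 0.49 ± 0.16 (adjusted p = 0.029) without that library. On average both were higher in collagen in all 3 replicates. In replicate 2 the Ero1l values at 1.7, 2.6 and 3.5 mg/ml lay inside the suspension pair (103 and 42.5 CPM). P4ha1 overlapped with suspension in replicates 1 and 2. P4ha2 (1.06 ± 0.61) did not pass.

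In glycolysis proper, calls over the 4 densities fell on single steps. Pgk1, the kinase of the first step that yields ATP, measured 113, 42.6 and 36.7 CPM in the 1.7 mg/ml gels (replicates 1, 2 and 3), 120.4, 40.6 and 33.8 in those of 2.6 mg/ml, 124, 38.1 and 34.8 in those of 3.5 mg/ml and 119, 134 and 48.9 in those of 4.4 mg/ml. Suspension held 26.4 to 67.5 CPM (median 32.3). Every gel library lay above both suspension libraries of its replicate number, and the within-replicate differences were 1.00, 0.76 and 0.43. The blocked fit gave 0.76 ± 0.19 (edgeR adjusted p = 0.0078) and 0.61 ± 0.14 without the library that stood apart. Its neighbour Pgam1 (phosphoglycerate mutase) measured 76.3, 25.2 and 17.7 CPM in the 1.7 mg/ml gels (replicates 1, 2 and 3), 61.6, 26.3 and 19.6 in those of 2.6 mg/ml, 60.5, 19.5 and 11.5 in those of 3.5 mg/ml and 46.6, 57.3 and 24 in those of 4.4 mg/ml, beside 12 to 45.3 CPM (median 18.4) in suspension, with a blocked difference of 0.58 ± 0.19 (adjusted p = 0.032), or 0.46 ± 0.16 (adjusted p = 0.036) without that library. Both share read-length windows with other genes, as given above.

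Slc16a3, the lactate exporter MCT4, measured 3066, 436 and 419.6 CPM in the 1.7 mg/ml gels (replicates 1, 2 and 3), 2705, 596 and 213 in those of 2.6 mg/ml, 2148, 234 and 169.8 in those of 3.5 mg/ml and 1431, 1844 and 259 in those of 4.4 mg/ml, beside 149 to 1949 CPM (median 334) in suspension. The gel libraries of replicate 1 spanned the suspension range, and those of replicate 3 lay above both suspension libraries. The blocked difference was 0.78 ± 0.29 (edgeR adjusted p = 0.056) and fell to 0.48 ± 0.18 without the library that stood apart, still past the threshold. Ldha, which turns pyruvate into lactate, measured 6593, 1034 and 1313 CPM in the 1.7 mg/ml gels (replicates 1, 2 and 3), 5181, 1102 and 758 in those of 2.6 mg/ml, 4915, 892 and 1051 in those of 3.5 mg/ml and 4215, 4299 and 1359.5 in those of 4.4 mg/ml, against 835 to 3559 CPM (median 1157). In replicate 1 every gel library was above both suspension libraries, and in replicates 2 and 3 the values overlapped. Its blocked difference was 0.52 ± 0.24 (adjusted p = 0.12), with 0.72, 0.35 and 0.29 within replicates.

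Pfkfb4, one of the bifunctional enzymes that set the level of the activator of phosphofructokinase, fell. Its values were 17, 24.5 and 12.5 CPM in the 1.7 mg/ml gels (replicates 1, 2 and 3), 18.8, 25.7 and 13.6 in those of 2.6 mg/ml, 19.3, 17.8 and 6.78 in those of 3.5 mg/ml and 16.6, 20 and 8.29 in those of 4.4 mg/ml, against 16 to 34.1 CPM (median 24.2) in suspension. In replicates 1 and 3 the gel libraries lay below their suspension libraries, and in replicate 2 they overlapped. The blocked fit gave -0.6 ± 0.17 (edgeR adjusted p = 0.016), and -0.62 ± 0.17 without the library that stood apart. The companion Pfkfb3 (-0.11 ± 0.16) and Pdk1, the kinase that holds back pyruvate dehydrogenase (-0.38 ± 0.22), did not pass.

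Slc2a1 measured 969, 110.2 and 124 CPM in the 1.7 mg/ml gels (replicates 1, 2 and 3), 902, 158 and 90.2 in those of 2.6 mg/ml, 879, 97.4 and 53.8 in those of 3.5 mg/ml and 857, 928 and 97.8 in those of 4.4 mg/ml, against 31.5 to 1433 CPM (median 95.5) in suspension. In replicate 1 the gel libraries lay within or just below the suspension pair, and in replicates 2 and 3 they lay above it, apart from the 3.5 mg/ml library of replicate 2, which lay between. The blocked difference was 0.78 ± 0.36 (edgeR adjusted p = 0.12) and 0.41 ± 0.23 without the library that stood apart. Gapdh, the enzyme often used as a reference gene, measured 32, 18.6 and 10.9 CPM in the 1.7 mg/ml gels (replicates 1, 2 and 3), 31.7, 25.4 and 14.2 in those of 2.6 mg/ml, 31.1, 14.4 and 6.63 in those of 3.5 mg/ml and 31.9, 67.7 and 12.2 in those of 4.4 mg/ml, and suspension 7.94 to 53.8 CPM (median 18). In replicate 1 all 4 gel libraries were below the suspension pair, and the blocked difference was 0.16 ± 0.24 (adjusted p = 0.66). The other transporter and the hexokinases had blocked differences of -0.18 (Slc2a3), 0.11 (Hk1) and 0.01 (Hk2), and none passed.

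**Figure D4:**
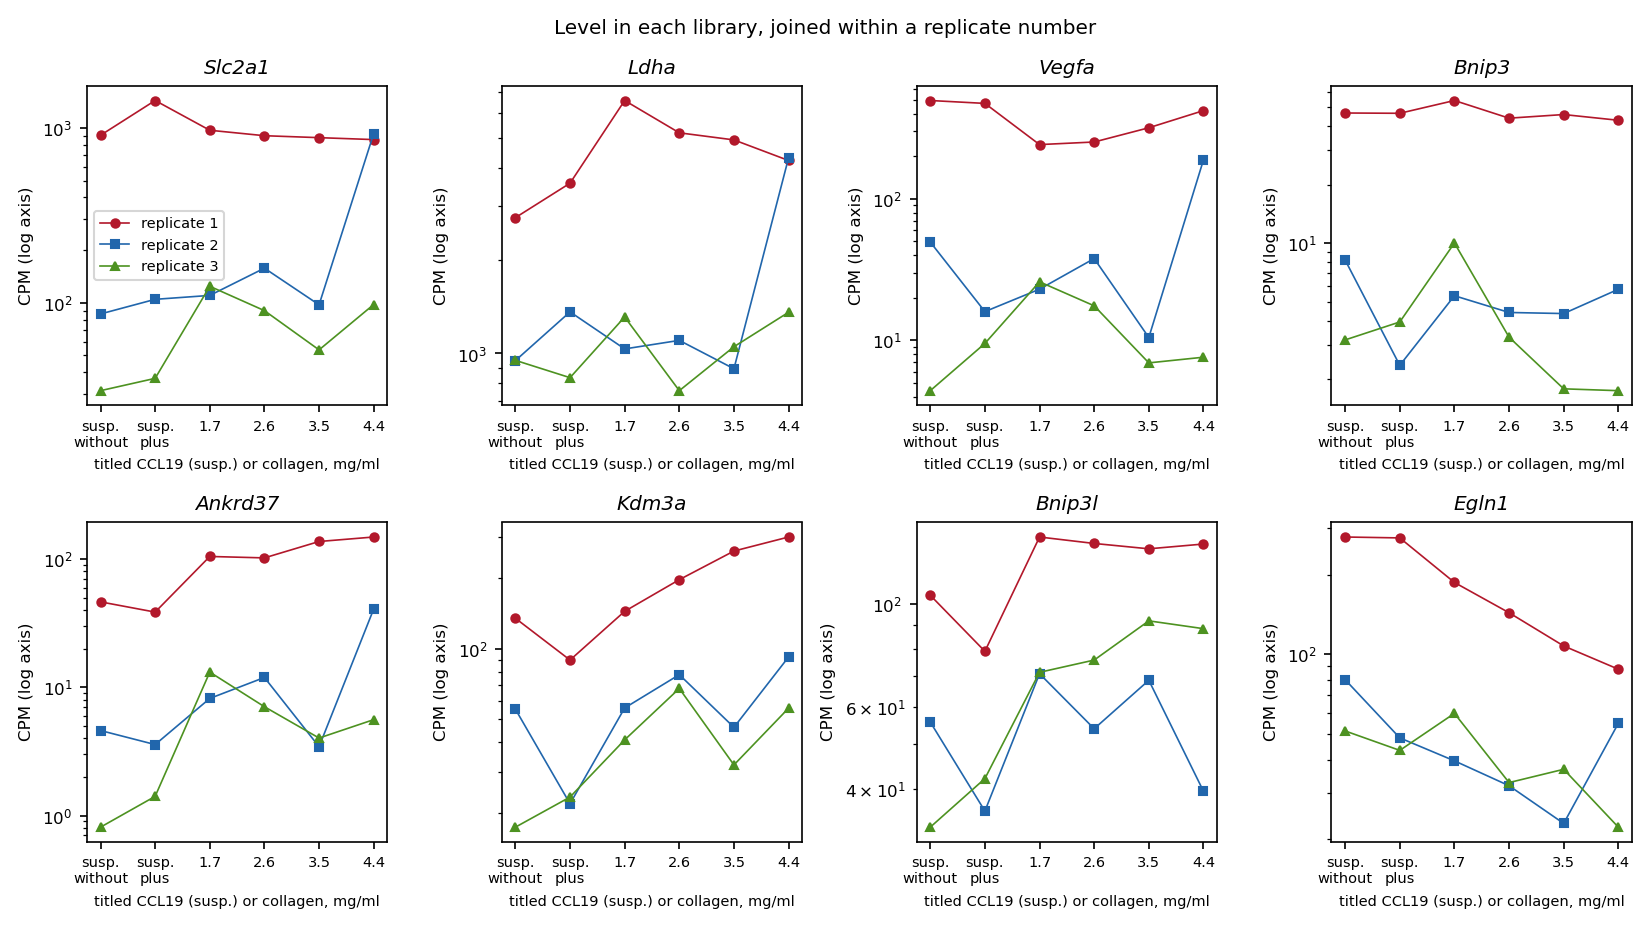
CPM (log axis) of 8 genes in each library, suspension at the left of each panel and collagen of rising density at the right, joined within replicate 1 (circles), 2 (squares) and 3 (triangles). Replicate 1 is the highest in all 6 groups for Vegfa and Bnip3, and in all but collagen 4.4 mg/ml for Slc2a1 and Ldha. On average within each replicate number, Ankrd37 and Kdm3a were higher and Egln1 was lower in collagen.

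Each density was then set against the same 6 suspension libraries, so these 4 comparisons share their controls. Without the block, none of the 35 genes was called at 1.7, 2.6 or 3.5 mg/ml (background 0.0361%, 7.87% and 4.9% of all genes), and 0 members had an unadjusted p under 0.05 in these 3 comparisons; DESeq2 also called 0. At 4.4 mg/ml 1 member was called, Adm, against 14.8% of all genes. Its log2 difference was 2.7 ± 0.89 (edgeR adjusted p = 0.066), with 1.51, 4.4 and 2.61 within replicates 1, 2 and 3. The call was lost without the 4.4 mg/ml library of replicate 2, at a log2 difference of 2.06 (adjusted p = 0.24), and without all replicate 3 libraries, at 2.72 (adjusted p = 0.19). DESeq2 called Adm and Pgk1.

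With the block, 1 member was called at 1.7 mg/ml (2.91% of all genes), 5 at 2.6 mg/ml (4 higher; 14.3% against 21.6%) and 6 at 3.5 mg/ml (3 higher and 3 lower; 17.1% against 18.4%). Ankrd37 rose at each of the 4 densities, by 2.06 ± 0.46, 1.75 ± 0.45, 1.25 ± 0.46 and 2.62 ± 0.45 from the lowest to the highest. Kdm3a rose at the 3 higher densities, 2.6 mg/ml and above, by 1.23, 0.78 and 1.39, with edgeR adjusted p-values of 0.0051, 0.059 and 0.00085. Bnip3l rose at the same densities by 0.59, 0.79 and 0.56. Egln1 fell there, with log2 differences of -0.83, -1.04 and -0.89. P4ha1 was higher at 2.6 mg/ml (0.62), and Pfkfb4 (-0.82) and Pdk1 (-0.92) were lower at 3.5 mg/ml. Pdk1 was called at no other density.

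At 4.4 mg/ml the blocked fit over all 18 libraries called 22 of 35 members (62.9%, against 31.9% of all genes), 20 higher (57.1% against 15.8%) and 2 lower (5.71% against 16.2%). The calls covered every role except the hexokinases. They took in Slc2a1 (1.86 ± 0.49) and, along the pathway, Gpi1 (1.26), Pfkp (0.57), Aldoa (1.11), Tpi1 (1.44), Gapdh (0.82), Pgk1 (1.37), Pgam1 (1.00), Pkm (1.07) and Ldha (1.16). Of these 10 genes, only Pgk1 kept its call without the 4.4 mg/ml library of replicate 2, and its differences within replicates 1, 2 and 3 were 1.00, 2.05 and 0.79. Within replicates, the difference of Slc2a1 at 4.4 mg/ml was -0.41, 3.28 and 1.52, and that of Ldha 0.43, 1.92 and 0.61. The median over the 35 members was 0.02 in replicate 1, 1.73 in replicate 2 and 0.56 in replicate 3.

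Without the 4.4 mg/ml library of replicate 2, the blocked fit called 8 members at 4.4 mg/ml (22.9%, against 25.1% of all genes). Kdm3a (1.36 ± 0.29), Ankrd37 (1.7 ± 0.44), Adm (1.84 ± 0.51), Bnip3l (0.82 ± 0.23), Pgk1 (0.81 ± 0.22) and Hif1a (0.75 ± 0.29) were higher. Egln1 (-1.49 ± 0.27) and Pfkfb4 (-0.89 ± 0.29) were lower. Apart from Hif1a, these 8 were also called with all libraries. Slc2a1 was then at 0.46 ± 0.37 (edgeR adjusted p = 0.42), Ldha at 0.38 ± 0.28 (adjusted p = 0.39) and Vegfa at -0.26 ± 0.55, and none of them passed. The median over the members fell from 1.00 to 0.22.

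In a trend over the 4 densities and in the direct comparison of 4.4 with 1.7 mg/ml no member was called by edgeR with or without the block or by DESeq2. With GC and length offsets added to the block, Adm was called in both and Kdm3a in the direct comparison. All genes were called at 0.00722% in both comparisons without the block and at 1.45% and 1.73% with it. At an unadjusted p under 0.05 there were 0 members in both without the block, and 5 in the trend and 8 in the direct comparison with it. Adm had the smallest p with the block, with a log2 slope of 0.85 ± 0.26 per mg/ml (adjusted p = 0.14). Egln1 read -0.22 per mg/ml with all libraries and -0.42 ± 0.1 (edgeR adjusted p = 0.12) without the 4.4 mg/ml library of replicate 2. In replicate 1 its values ran 187, 144, 108 and 87.9 CPM from the lowest to the highest density. Leaving that library out turned the sign of the group's median slope, from 0.11 with 28 members positive to −0.06 with 8.

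Between the 2 suspension groups, titled plus and without CCL19, no member was called by edgeR with or without the block (0% of all genes in both fits) or by DESeq2. At an unadjusted p under 0.05 there were 0 members without the block and 2 with it.

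Further genes of glycolysis and the hypoxia response, 71 on the list and 64 tested, were counted for context. In collagen against suspension, 6 of the 64 rose and 3 fell without the block, and 15 rose and 5 fell with it. In both fits this was a smaller share called than the 20.2% and 34.8% of all genes given above. Unlike the 35 members, some passed without the block. Pgf, placental growth factor and a relative of VEGF-A, ran over 54 to 545 CPM in the 12 gel libraries and 26.2 to 70.7 CPM in suspension (1.66 ± 0.42, edgeR adjusted p = 0.015). Its highest gel value is the 4.4 mg/ml library of replicate 2, the next is 214 CPM, and without that library the difference was 1.43 ± 0.38 (adjusted p = 0.02). Cited2, which competes with HIF for its coactivator, stood at 31.5 to 84.7 CPM in gel and 26.8 to 40.6 CPM in suspension (0.66 ± 0.16, adjusted p = 0.012). Pdk3, another pyruvate dehydrogenase kinase, stood at 41.7 to 98.3 and 36.6 to 53.3 CPM (0.68 ± 0.18, adjusted p = 0.019).

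Hif1an, the asparaginyl hydroxylase that restrains HIF activity, fell. It measured 58.6, 70 and 49 CPM in the 1.7 mg/ml gels (replicates 1, 2 and 3), 56.1, 59.9 and 54.7 in those of 2.6 mg/ml, 36.4, 54 and 48.5 in those of 3.5 mg/ml and 28.2, 30.3 and 40.8 in those of 4.4 mg/ml, against 63.4 to 80.7 CPM in suspension. All 3 libraries at 3.5 and at 4.4 mg/ml lay below all 6 suspension libraries, in every replicate number. The log2 difference was -0.63 ± 0.14 over the 4 densities (edgeR adjusted p = 0.0088) and -1.16 ± 0.22 at 4.4 mg/ml, or -1.1 ± 0.25 there without the replicate 2 library. Pgam2, the muscle form of phosphoglycerate mutase (-1.14 ± 0.27), and Pdk2 (-0.76 ± 0.26) fell as well. These 6 genes, from Pgf to Pdk2, were also called over the 4 densities without the block when the 4.4 mg/ml library of replicate 2 was left out. With the block Hif1an and Slc16a1, a lactate transporter, were also called in the density trend, at -0.31 ± 0.08 and 0.6 ± 0.14 per mg/ml. Both trend calls were lost without that library, at -0.29 ± 0.09 (edgeR adjusted p = 0.19) and 0.55 ± 0.15 (adjusted p = 0.14).

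Among markers of other cells, those of eosinophils moved most plainly with the gel. The 10 eosinophil markers in the table (Prg2 and Epx among them, none at 0 throughout) summed to 123 to 1440 CPM in suspension and to 18.8 to 178 CPM in collagen, and all 9 that were tested fell in the blocked fit. Of the 8 macrophage markers, 5 rose in that fit, with sums of 352 to 1973 CPM in suspension and 327 to 2225 in collagen. Of the 11 neutrophil markers 3 fell, of the 7 basophil and mast cell markers 3 fell, of the 3 lymphocyte markers tested 1 fell, and of the 12 dendritic cell markers 1 rose and 1 fell. The 1 red cell marker tested was not called. Of all genes in that fit, 15.6% rose and 19.3% fell. Without the block 8 eosinophil, 3 neutrophil and 1 dendritic cell marker fell, and no marker of the other lists, macrophages included, was called. Mitochondrial transcripts took 0.583% to 1.68% of counts in suspension and 0.832% to 2.9% in collagen. The part of these shifts in the differences between collagen and suspension was not tested.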

How the data were processed

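RNA of 18 libraries was sequenced on an Illumina HiSeq 2000 from a stranded mRNA kit. Per the submitters' processing notes reads were aligned with STAR 2.7.0f to GRCm38; the study's methods name RSEM for TPM values, and whether it also gave the deposited counts, and its strand setting, are not given in the sources used here. The authors deposited raw counts per Ensembl gene in 1 table, with no normalization. Symbols and places came from GENCODE M21 (GRCm38). Aldoa has another Ensembl entry with few counts, which was not used.

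Genes were filtered with filterByExpr, scaled by TMM and tested with edgeR 4.0.16 (R 4.3.3; quasi-likelihood F-test, Benjamini-Hochberg over all 13844 genes tested, FDR under 0.1); all 6 groups shared one fit, without a block, since the study's methods name none. Standard errors are the log2 difference divided by the root of F. Alternatives were the replicate number as a block, DESeq2 1.42.0, RLE scaling, no filter, an FDR of 0.05, only the libraries compared, loess offsets for GC content and length, and leaving out libraries; the blocked fit without the collagen 4.4 mg/ml library of replicate 2 was added after the data were seen. The replicate numbers pair the libraries: same-numbered libraries share the date in their names, and their deviations from the group means had a mean correlation of 0.43 over 45 pairs (lowest −0.15). The mean over 90 pairs with different numbers was −0.21. Centring on the group means largely sets that value, so it is no separate comparison. Blocked values therefore stand beside the others. No 2 libraries held identical counts. The titles call the replicates biological, but nothing in the labels says that they came from separate mice, so p-values cover the spread between these libraries.

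The members, the further pathway genes and the markers were chosen with earlier results of these data known. Values in every library are given for members called without the block, for up to 12 called only with it by their adjusted p in collagen against suspension, and for Hif1a, Gapdh, Slc2a1, Ldha, Pgk1, Vegfa, Bnip3 and Egln3; further pathway genes are named by the 6 smallest adjusted p-values, with Slc16a1 added after its values were seen. Levels are CPM of TMM-scaled totals; on the log2 scale 2 prior counts were added. A count of 3, taken as the floor, is 0.107 to 0.23 CPM. The scripts were tested on simulated data, with a replicate effect smaller than the split described above for most of these genes.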

Additional observations from a re-analysis of the deposited data

Results flagged for a closer look

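Bnip3 was noted because its difference from suspension had one sign at 1.7 mg/ml and the other at the 2 middle densities in each replicate number. Relative to the suspension mean of its own number, its log2 CPM differed by 0.22, 0.28 and 1.47 in replicates 1, 2 and 3 at 1.7 mg/ml. At 2.6 mg/ml the differences were −0.086, −0.0033 and −0.10 and at 3.5 mg/ml −0.024, −0.021 and −0.95, so 5 of these 6 values lie near 0 and replicate 3 carries most of the gap. The mean difference was lower by −0.72 at 2.6 and by −0.99 at 3.5 mg/ml than at 1.7 mg/ml. The difference between the densities was not tested, Bnip3 was called in no fit at any density, and 62.4% of its read-length windows also occur in other genes. The search covered 114 pairs of densities over 19 genes, with the 6 suspension libraries shared by all. None of the 19 genes had a single suspension library far from the other 5 by Dixon's criterion. That criterion misses 2 high libraries that lie together. For Vegfa the replicate 1 suspension pair stood at 495.02 and 472.28 CPM and the other suspension libraries at 49.5 or less.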

How the results depend on the processing

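Which of the 35 genes were called depended on whether the replicate number was in the model. With the replicate block, 12 were called in collagen against suspension, 1 at 1.7, 5 at 2.6, 6 at 3.5 and 22 at 4.4 mg/ml; with GC and length offsets added to the block, 17, 4, 4, 4 and 26, and 1 in the density trend and 2 in 4.4 against 1.7 mg/ml. The blocked fit without the collagen 4.4 mg/ml library of replicate 2, chosen after the data were seen, called 13, 4, 10, 9 and 8. Without the filter on low counts the unblocked fit called 6, 1, 2, 3 and 8. In collagen against suspension the offsets alone and DESeq2 called 1 each; at 4.4 mg/ml the offsets called 3, DESeq2 and the fit of the compared libraries alone 2 each, and an FDR of 0.05 called 0. Leaving out libraries gave 0 to 5 calls for collagen against suspension, 0 to 1 at 2.6 mg/ml and 0 to 21 at 4.4 mg/ml, the highest without replicate 1 in each.

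None of the values that changed sign was called without the block. In collagen against suspension, Gapdh turned to 0.16 with the block, 0.35 with block and offsets, 0.18 with the offsets, 0.037 with RLE scaling and 0.035 with DESeq2. Vegfa turned to 0.28 with the block and 0.41 with block and offsets. Egln3 turned to 0.45 with the block, 0.45 with block and offsets and 0.029 with the block and without the 4.4 mg/ml library of replicate 2. Bnip3 turned to 0.00092 with the block, 0.053 with RLE scaling and 0.051 with DESeq2, Slc2a1 to −0.043 without the filter and Hilpda to −0.051 with the offsets. At 4.4 mg/ml, Egln3 turned to 1.08 with the block, 1.00 with block and offsets, 0.057 with RLE scaling and 0.051 with DESeq2, and Vegfa to −0.26 with the block and without the 4.4 mg/ml library of replicate 2.

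Leaving out libraries in the unblocked fit moved the log2 difference in collagen against suspension over −0.33 to 0.61 for Gapdh, −0.59 to 0.64 for Vegfa, −0.17 to 0.70 for Egln3, −0.0062 to 0.099 for Bnip3, −0.20 to 1.32 for Slc2a1 and −0.038 to 0.66 for Hif1a. At 4.4 mg/ml the ranges were −0.27 to 1.76 for Gapdh, −0.15 to 2.53 for Vegfa, −0.63 to 2.12 for Egln3, −0.13 to 0.27 for Bnip3, −0.26 to 3.11 for Slc2a1, −0.14 to 0.87 for Hif1a, −0.45 to 3.52 for Hilpda and −0.088 to 2.26 for Slc16a3. The causes were not tested, beyond what the fits leave out.

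With GC and length offsets the calls among all genes at 3.5 mg/ml changed from 273 higher and 406 lower to 357 and 178. Other results kept their direction and their side of the threshold or gained a call. Adm, at 1 to 185 counts a library, is the member most limited by depth.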
